A study of Mus musculus with 16 samples.

Results

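The proteasome subunit genes were taken as every gene whose name in the array files is Psma, Psmb, Psmc, Psmd, Psme, Psmf or Psmg followed by a number, with the brightest probe standing for a gene that has several. The rule found 65 probes for 42 genes of 28100 gene names, and all 42 were among the 21514 genes that could be tested. They were 8 alpha and 7 constitutive beta subunits of the core (15 genes), 6 ATPases, 14 non-ATPase subunits and 3 activators on the regulatory side (23 genes), the 3 immunoproteasome subunits Psmb8, Psmb9 and Psmb10, and the inhibitor gene Psmf1. The 14 non-ATPase genes are those named Psmd. They were grouped by name, and not all encode subunits of the finished particle: Psmd5, for example, encodes an assembly chaperone. No gene named Psmg was found, and neither Psmb11 nor Psme2 was among the names.

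The proteasome is the large protease that degrades proteins tagged with ubiquitin. Its barrel-shaped core is built of rings of alpha and beta subunits, and 3 of the beta subunits cut peptide bonds; the regulatory particle at the end of the barrel binds ubiquitin, removes it, and unfolds and feeds in the substrate with its ATPases. Interferon induces Psmb8, Psmb9 and Psmb10, which replace the catalytic beta subunits and change the peptides made for class I antigen presentation. The stress factors NRF1 (Nfe2l1) and NRF2 are known to activate proteasome genes in other settings.

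Two-colour arrays measured lung RNA of A/J females, whose strain readily forms lung tumours, with 1 array for each of 16 mice in 4 groups of 4. NNK+SECY mice received both NNK, a nitrosamine carcinogen of tobacco, and selenocystine, an amino acid that contains selenium, with the diet starting 3 days after the injection at the dose and for the time of the SECY group. SECY mice ate selenocystine at 15 ppm for 10 days without NNK. NNK mice had a single injection into the peritoneum of 0.2 mL of saline with NNK at 10 uM, as the labels give it, and lungs were taken 13 days later. Untreated mice had neither agent. All groups ate a basal AIN-76 diet with 0.35 ppm selenium. Whole lung was used, so a change in the mix of cells and a change of RNA per cell cannot be told apart.

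Each value is log2(Cy5/Cy3), the lung of 1 mouse in Cy5 over a mix of the 4 untreated lungs in Cy3 on the same array. A gene at 0 has equal normalized signal in both dyes, which need not mean RNA equal to that mix. On the Untreated arrays, whose lungs made up the mix, Psmc5 had 0.165 to 0.258 and Psmd11 -0.219 to -0.144. Values are therefore compared between groups. NNK+SECY and SECY arrays share one set of barcodes in the file headers, and NNK and Untreated arrays another. Each barcode is taken here as a slide, so the diet and the slide set cannot be told apart. NNK+SECY and NNK arrays were scanned on one day, and SECY and Untreated arrays on another, so NNK and the scan day cannot be told apart. On all 16 arrays the Cy5 signal of the brightest probe was well above background for 41 of the 42 genes (15 arrays for the other), and none was saturated. All 7 markers of lung epithelium looked at, Sftpc and Scgb1a1 among them, were above background on every array. Their array medians ranged from -0.22 to -0.102 on the NNK+SECY arrays and -0.216 to -0.105 on the SECY arrays. On the NNK arrays the range was -0.214 to -0.027, and on the Untreated arrays -0.079 to 0.069. None of the 7 was called in the diet average, and the part of epithelium in the proteasome values was not tested. The array labelled SECY 3 stood apart, with the lowest array weight (0.196, against 0.535 to 2.12 on the other arrays), and values without it stand beside several results. Outlier flags removed SECY values of 4 genes: Psma3 kept 3 arrays, and Psmb8, Psmd11 and Psme1 kept 2 each.

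**Figure D1:**
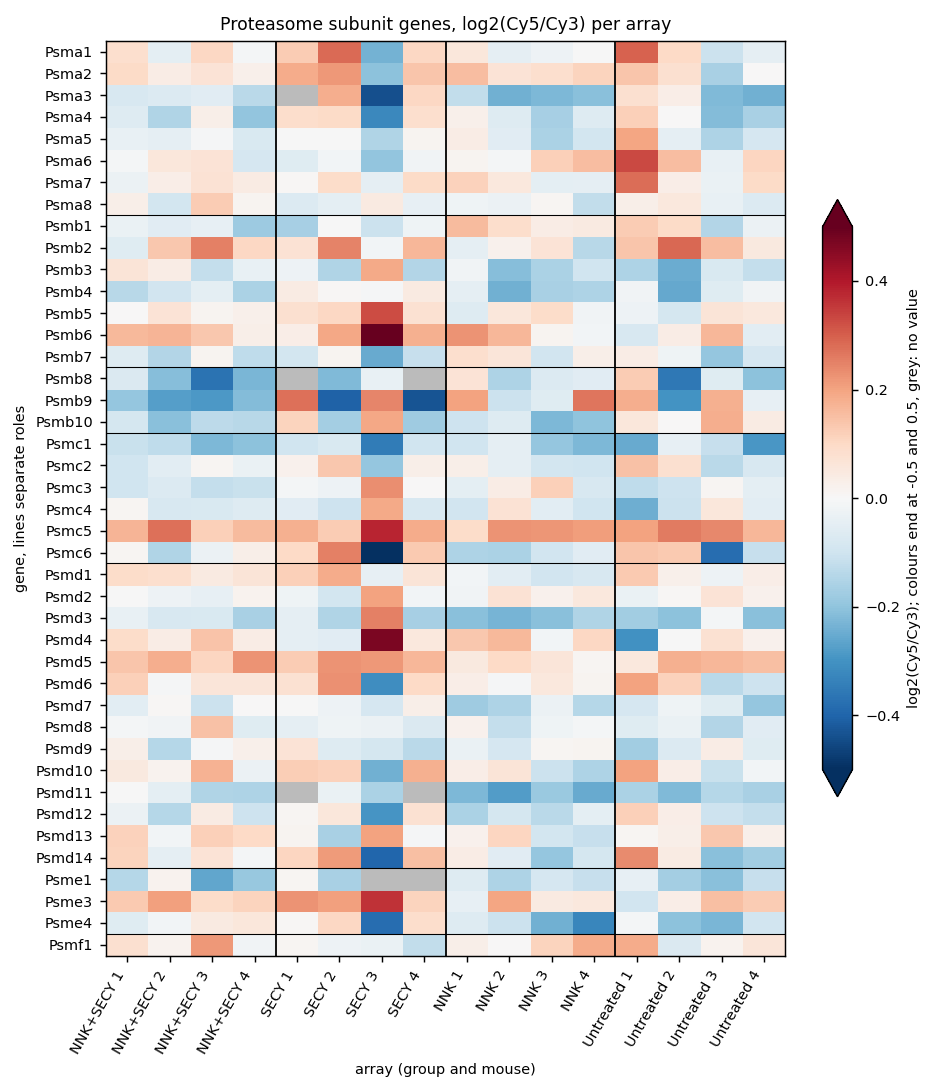
Log2(Cy5/Cy3) of the 42 proteasome subunit genes (rows, lines separate the roles) on the 16 arrays (columns, in the order NNK+SECY, SECY, NNK and Untreated). Colours run between -0.5 and 0.5, grey marks a value removed by a flag, and the SECY 3 column stands out, with 14 genes at their lowest and 12 at their highest of all 16 arrays.

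No proteasome subunit gene changed with the selenocystine diet at an adjusted p below 0.05. The diet average is the mean of the SECY against Untreated and the NNK+SECY against NNK differences. In it 0 of 42 genes were called by limma with Benjamini-Hochberg adjustment over all genes, against 2.38% of all genes tested. The lowest adjusted p of a member was 0.217. At an unadjusted p below 0.05, 8 members were higher and 2 lower, against 4.89% higher and 7.41% lower of all genes. With the slide as a block these counts were 4 higher and 2 lower (4.03% and 6.56% of all genes), with the Cy5 signal alone 3 higher and 5 lower (20.5% and 22.2%), and without SECY 3 they were 9 higher and 3 lower (7.83% and 10.4%). The estimates were small, between -0.20 and 0.14 on the log2 scale, and the 95% interval of each of the 42 genes, not adjusted for their number, excluded a 1.5-fold change in either direction; 39 of 42 also excluded a 1.2-fold change. Of the estimates 31 were above 0 and 11 below, with a median of 0.021, against a median of -0.004 over all genes; with arrays centred on their median in place of loess 18 were above 0 with a median of -0.014, and with Cy5 alone 19 with a median of -0.017. In SECY against Untreated mice 0 of 42 were called (0.274% of all genes), and 4 had an unadjusted p below 0.05 (8.1% of all genes), 3 of them higher. In NNK+SECY against NNK mice 0 of 42 were called as well (1.74% of all genes), and 4 had an unadjusted p below 0.05 (9.88% of all genes), again 3 of them higher. All 42 intervals excluded a 1.5-fold change in SECY against Untreated mice, and 41 did in NNK+SECY against NNK mice, Psmb9 being the exception.

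**Figure D2:**
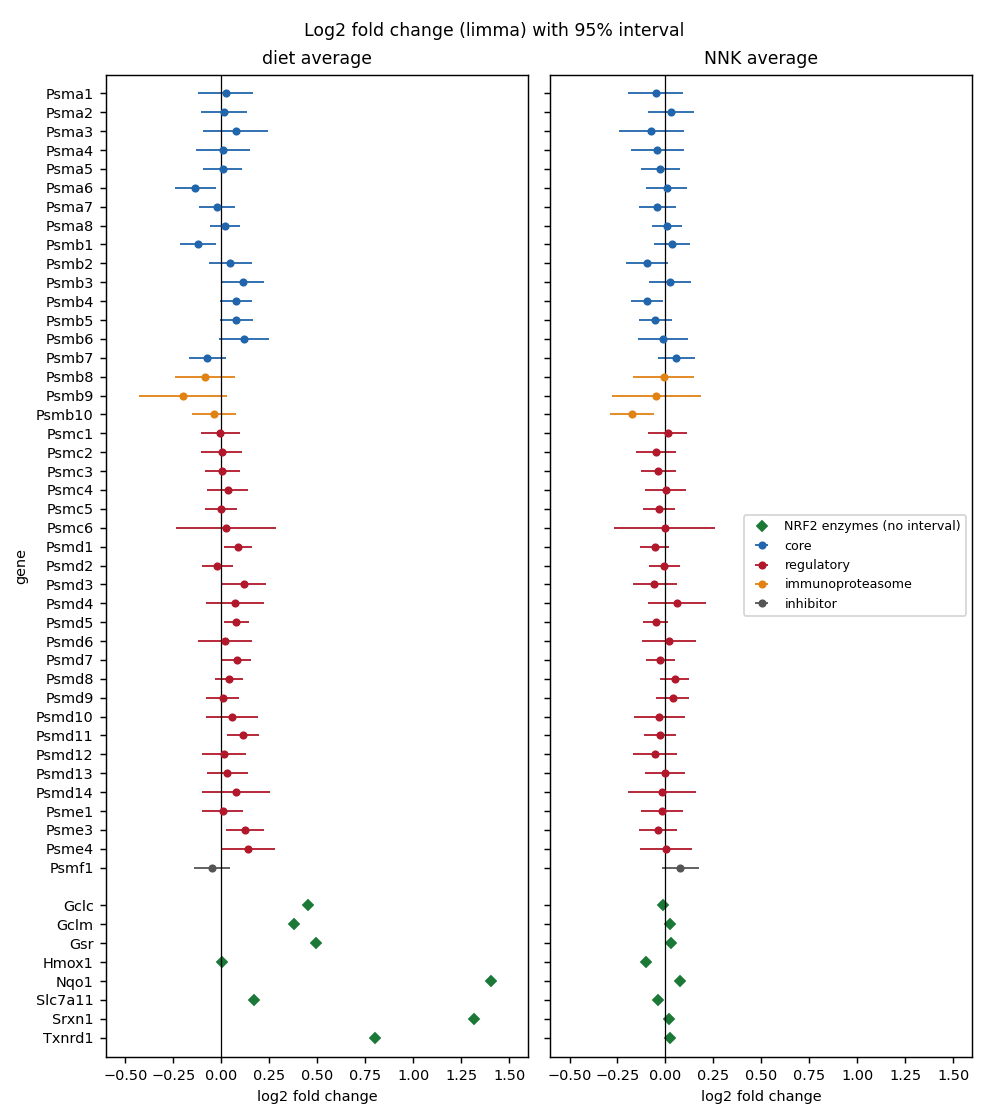
Log2 fold change of each proteasome subunit gene with its 95% interval from limma, in the diet average and in the NNK average, coloured by part, with 8 NRF2 enzymes as diamonds below. The proteasome estimates lie between -0.20 and 0.14 in the diet average, while Nqo1 and Srxn1 lie above 1.

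Genes that NRF2 is known to control gave a scale for these estimates in the same arrays. Of 8 such enzymes 7 rose in the diet average, with a median of 0.47, and Hmox1, which makes heme oxygenase, had 0.003. Nqo1, a quinone reductase, rose by 1.41 ± 0.095 (SE, limma adjusted p = 2.37e-07). Txnrd1, the cytosolic thioredoxin reductase, rose by 0.80 ± 0.065 (limma adjusted p = 1.66e-06), and Srxn1 (sulfiredoxin), Gsr (glutathione reductase), Gclc and Gclm (the subunits of the enzyme that starts glutathione synthesis) and the cystine carrier Slc7a11 by 0.17 to 1.32. Slc7a11 was well above background on 7 of the 16 arrays, and the other enzymes on all 16. Slc7a11 was thus tested only through a group with all its arrays above background, and its estimate rests partly on dim values. These enzymes were known from earlier results of the same arrays to respond, so they serve as a comparison and not as evidence of their own.

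Among the alpha subunits, which form the outer rings and the gate of the core, 6 of 8 estimates in the diet average were above 0 and the median was 0.011. Psma6 had the lowest estimate. It had log2 ratios of -0.011, 0.056, 0.07 and -0.083 on the NNK+SECY arrays and -0.062, -0.015, -0.20 and -0.019 on the SECY arrays. It had 0.012, -0.011, 0.12 and 0.15 on the NNK arrays and 0.33, 0.15, -0.038 and 0.11 on the Untreated arrays. All 4 SECY values were below 0 and Untreated 1 was the highest of all, but the groups overlapped. The diet average of Psma6 was -0.14 ± 0.05 (SE, limma adjusted p = 0.24), and SECY against Untreated gave -0.21 ± 0.071 (limma adjusted p = 0.315). Psma3 gave -0.082, -0.068, -0.055 and -0.13 on the NNK+SECY arrays and 0.18, -0.44 and 0.10 on 3 SECY arrays, against -0.12, -0.24, -0.22 and -0.21 on the NNK arrays and 0.082, 0.034, -0.22 and -0.24 on the Untreated arrays. Its values were spread more widely within SECY and within Untreated than the groups differed, with a diet average of 0.074 ± 0.08 (SE, limma adjusted p = 0.786); without SECY 3 it was 0.17 ± 0.053 (limma adjusted p = 0.0896).

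The constitutive beta subunits include the catalytic ones, Psmb5 (cutting after hydrophobic residues), Psmb6 (after acidic residues) and Psmb7 (after basic residues). Psmb5 had 0.003, 0.068, 0.013 and 0.024 on the NNK+SECY arrays and 0.079, 0.10, 0.33 and 0.078 on the SECY arrays, against -0.063, 0.056, 0.09 and -0.017 on the NNK arrays and -0.024, -0.088, 0.064 and 0.053 on the Untreated arrays. The SECY values lay above all Untreated values, by 0.15 ± 0.059 (SE, limma adjusted p = 0.489), while NNK+SECY and NNK values overlapped (0.01 ± 0.059, SE). Psmb5 and Psmb4 were the 2 genes whose SECY arrays lay wholly above the Untreated arrays, of 38 with all values, against 1.72% of all genes. Psmb6 had 0.16, 0.17, 0.14 and 0.029 on the NNK+SECY arrays and 0.032, 0.19, 0.51 and 0.18 on the SECY arrays, against 0.22, 0.17, 0.015 and -0.014 on the NNK arrays and -0.081, 0.039, 0.17 and -0.051 on the Untreated arrays. SECY 3 gave the highest Psmb5 and the highest Psmb6 value of all 16 arrays, and the groups overlapped for Psmb6, with a diet average of 0.12 ± 0.062 (SE, limma adjusted p = 0.476). Without SECY 3 the SECY against Untreated difference of Psmb5 was 0.085 ± 0.050 and the diet average of Psmb6 0.071 ± 0.049 (SE, limma adjusted p = 0.535 and 0.478).

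Psmb1 and Psmb3 are structural beta subunits and had the lowest unadjusted p of the beta ring. Psmb1 had -0.035, -0.055, -0.041 and -0.18 on the NNK+SECY arrays, all below the 0.16, 0.088, 0.036 and 0.043 on the NNK arrays. SECY arrays gave -0.17, -0.003, -0.11 and -0.023 and Untreated arrays 0.13, 0.097, -0.15 and -0.029, which overlapped. The diet average of Psmb1 was -0.12 ± 0.044 (SE, limma adjusted p = 0.217), the lowest adjusted p of the 42 genes in this comparison. Psmb3 ran the other way, with 0.064, 0.039, -0.12 and -0.036 on the NNK+SECY arrays and -0.025, -0.15, 0.19 and -0.15 on the SECY arrays, against -0.017, -0.21, -0.16 and -0.10 on the NNK arrays and -0.15, -0.25, -0.078 and -0.12 on the Untreated arrays. The groups overlapped, and the diet average was 0.11 ± 0.051 (SE, limma adjusted p = 0.382). A second, dimmer probe of Psmb3 gave 0.028.

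The regulatory genes are the Psmc, Psmd and Psme genes, most of them encoding the particle or its activators. In the diet average 20 of the 23 had estimates above 0, and 0 of 23 were called. At an unadjusted p below 0.05, 7 were higher (5 Psmd genes and 2 activators) and none lower, against 4.89% higher among all genes. The median of the 23 was 0.032, and it was -0.002 when arrays were centred on their median in place of loess and -0.019 when the Cy5 signal was used alone, so its sign depended on the scaling. The ATPases, the motor ring of the particle, had a median of 0.003 with 4 of 6 above 0. Psmc4 had 0.008, -0.079, -0.077 and -0.065 on the NNK+SECY arrays and -0.058, -0.11, 0.19 and -0.079 on the SECY arrays, against -0.094, 0.074, -0.051 and -0.10 on the NNK arrays and -0.24, -0.11, 0.056 and -0.052 on the Untreated arrays. The SECY 3 value lay far above the other SECY values, and the groups overlapped (0.032 ± 0.05, SE, limma adjusted p = 0.874). Psmc6 had 0.008, -0.15, -0.031 and 0.03 on the NNK+SECY arrays and 0.098, 0.25, -0.83 and 0.13 on the SECY arrays, against -0.16, -0.16, -0.097 and -0.056 on the NNK arrays and 0.14, 0.13, -0.38 and -0.12 on the Untreated arrays. Its SECY 3 value was the lowest of any proteasome gene on any array, and its diet average was 0.026 ± 0.12 with all arrays (SE, limma adjusted p = 0.966) and 0.15 ± 0.066 without SECY 3 (limma adjusted p = 0.244).

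The Psmd genes mostly encode non-ATPase subunits, which bind ubiquitin, remove it and hold the particle together. Their estimates were above 0 in 13 of 14 in the diet average, with a median of 0.062. With median centring in place of loess 9 of 14 were above 0, and with the Cy5 signal alone 6 of 14. Psmd11, a scaffold subunit of the lid, had -0.001, -0.049, -0.15 and -0.16 on the NNK+SECY arrays and -0.033 and -0.16 on 2 SECY arrays, against -0.22, -0.28, -0.19 and -0.25 on the NNK arrays and -0.16, -0.22, -0.14 and -0.16 on the Untreated arrays. All NNK+SECY values lay above all NNK values, by 0.15 ± 0.049 (SE, limma adjusted p = 0.256), and the diet average was 0.11 ± 0.039 (SE, limma adjusted p = 0.22). The other Psmd11 probe gave -0.095 in the diet average and was well above background on 0 arrays. Psmd5, a chaperone that assembles the base, had 0.14, 0.18, 0.11 and 0.23 on the NNK+SECY arrays and 0.13, 0.23, 0.22 and 0.17 on the SECY arrays, against 0.047, 0.099, 0.061 and 0.01 on the NNK arrays and 0.054, 0.18, 0.17 and 0.15 on the Untreated arrays. Its NNK+SECY values also lay above all NNK values, by 0.11 ± 0.044 (SE, limma adjusted p = 0.387). In NNK+SECY against NNK the arrays did not overlap for 6 of 42 genes, against 8.46% of all genes. Psmd11, Psmd5, Psmd1 and the activator Psme4 were higher in this way, and Psmb1 and Psmb9 lower.

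The activators bind the core in place of the ATPase particle or beside it. Psme3 encodes PA28 gamma, the nuclear activator, and had 0.13, 0.20, 0.093 and 0.11 on the NNK+SECY arrays and 0.22, 0.20, 0.36 and 0.11 on the SECY arrays, against -0.042, 0.20, 0.044 and 0.053 on the NNK arrays and -0.095, 0.033, 0.15 and 0.13 on the Untreated arrays. All 8 arrays of diet-fed mice were above 0, but NNK 2 and Untreated 3 and 4 lay among them, and the diet average was 0.12 ± 0.047 (SE, limma adjusted p = 0.27). Psme4 encodes PA200, and had -0.06, -0.014, 0.045 and 0.058 on the NNK+SECY arrays and 0.005, 0.10, -0.38 and 0.086 on the SECY arrays, against -0.063, -0.11, -0.24 and -0.33 on the NNK arrays and -0.011, -0.20, -0.23 and -0.094 on the Untreated arrays. The 4 NNK+SECY values lay above all NNK values, and 3 of 4 SECY values lay above all Untreated values while SECY 3 lay below them all. The diet average of Psme4 was 0.14 ± 0.065 with all arrays (SE, limma adjusted p = 0.394) and 0.20 ± 0.046 without SECY 3 (limma adjusted p = 0.0228), the single member called in that comparison without SECY 3, against 4.06% of all genes. Its 3 other probes gave 0.015 to 0.073 with all arrays. Psme1, a subunit of the interferon-induced activator PA28, had a diet average of 0.008 ± 0.05 (SE, limma adjusted p = 0.973). Psmf1, which encodes the inhibitor PI31, had 0.08, 0.018, 0.22 and -0.017 on the NNK+SECY arrays and 0.011, -0.027, -0.034 and -0.12 on the SECY arrays, against 0.031, 0.001, 0.11 and 0.18 on the NNK arrays and 0.19, -0.074, 0.018 and 0.059 on the Untreated arrays. These groups overlapped, and the diet average was -0.049 ± 0.045 (SE, limma adjusted p = 0.735).

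Core and regulatory genes were set side by side on each array by their medians, as a description. The median of the 15 core genes ranged from -0.043 to 0.028 on the NNK+SECY arrays and from -0.11 to 0.093 on the SECY arrays, against -0.043 to 0.027 on the NNK arrays and -0.078 to 0.12 on the Untreated arrays. The median of the 23 regulatory genes ranged from -0.019 to 0.041 on the NNK+SECY arrays and from -0.062 to 0.054 on the SECY arrays, against -0.083 to -0.032 on the NNK arrays and -0.061 to 0.004 on the Untreated arrays. Core medians of the groups overlapped throughout. Regulatory medians were higher on all NNK+SECY arrays than on any NNK array, while SECY and Untreated arrays overlapped. The difference of core minus regulatory medians was -0.028 ± 0.012 in NNK+SECY and 0.048 ± 0.013 in NNK mice, and 0.025 ± 0.067 in SECY and 0.045 ± 0.074 in Untreated mice (SD, n = 4 each).

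**Figure D3:**
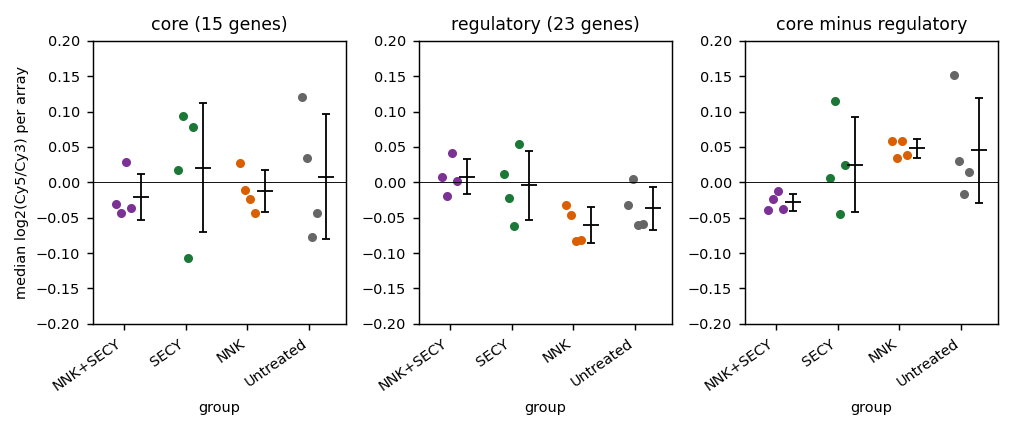
Median log2(Cy5/Cy3) per array of the 15 core and the 23 regulatory genes and their difference, with a point for each array and the mean and SD of 4 arrays beside it. The core minus regulatory difference is negative on all NNK+SECY arrays (-0.039 to -0.013) and positive on all NNK arrays (0.035 to 0.059), while SECY and Untreated arrays span both signs.

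For each immunoproteasome subunit the arrays of at least 1 group spanned more than the group means differed. Psmb9, which sits beside the antigen transporter genes in the class II region, had -0.20, -0.28, -0.29 and -0.22 on the NNK+SECY arrays and 0.27, -0.40, 0.25 and -0.43 on the SECY arrays. It had 0.20, -0.11, -0.061 and 0.27 on the NNK arrays and 0.18, -0.30, 0.18 and -0.042 on the Untreated arrays. SECY 1 and 3 were high and SECY 2 and 4 the lowest of all arrays, while the 4 NNK+SECY values were close together and below every NNK value. The NNK+SECY against NNK difference was -0.32 ± 0.15 (SE, limma adjusted p = 0.517) and its 95% interval, -0.64 to 0.006, was the widest downward of the members. Psmb8 had -0.072, -0.21, -0.37 and -0.23 on the NNK+SECY arrays and -0.22 and -0.036 on SECY 2 and 3, against 0.067, -0.15, -0.069 and -0.056 on the NNK arrays and 0.13, -0.36, -0.061 and -0.21 on the Untreated arrays. The groups overlapped, with a diet average of -0.086 ± 0.074 (SE, limma adjusted p = 0.714).

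Psmb10 was the 1 gene of 42 whose NNK arrays, and the 1 whose NNK+SECY arrays, lay wholly below the Untreated arrays, against 1.36% and 3.62% of all genes, and it was not called. It had -0.089, -0.21, -0.13 and -0.14 on the NNK+SECY arrays and 0.11, -0.17, 0.19 and -0.18 on the SECY arrays, against -0.10, -0.065, -0.22 and -0.20 on the NNK arrays and 0.057, 0.003, 0.18 and 0.041 on the Untreated arrays. All 8 arrays of NNK-injected mice were below 0 and all 4 Untreated arrays above it, while SECY arrays fell on both sides. The difference was -0.22 ± 0.076 for NNK against Untreated (SE, limma adjusted p = 0.615) and -0.21 ± 0.076 for NNK+SECY against Untreated (limma adjusted p = 0.308). Within the 4 slides that carried both an NNK and an Untreated array, NNK minus Untreated was -0.16, -0.068, -0.41 and -0.24, lower on every slide. Within the 4 slides of the diet-fed mice, NNK+SECY minus SECY was -0.20, -0.039, -0.32 and 0.041, lower on 3 of them. The arrays of a slide were scanned on different days, so these differences include the scan day. They restate the values above and add no separate support. The NNK average over both diets was -0.18 ± 0.054 (SE, limma adjusted p = 0.346).

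Psmb9 and Psmb10 varied together from array to array. Their deviations from the group means correlated by 0.76 over 16 arrays. Psmb8, which has no value on SECY 1 and 4, was left out. The mean over pairs of genes with values on all 16 arrays was 0.15 among core genes, -0.021 among regulatory genes and 0.001 among all genes. The genes share their arrays, so this is a description. The same SECY arrays were high and low for class I antigen processing, a list of 12 measured genes with Tap1, Tap2 and B2m among them: its array medians were 0.092, -0.30, 0.15 and -0.17 on SECY 1 to 4. No gene of that list was called in any of the 8 comparisons, and none of 7 interferon response genes, whose medians on these arrays were 0.14, -0.13, 0.025 and -0.081. Medians of 14 leukocyte markers on the same 4 arrays were -0.022, -0.20, 0.033 and -0.15, also lower on SECY 2 and 4. Over the groups the leukocyte medians ranged from -0.052 to 0.030 on the NNK+SECY arrays and -0.20 to 0.033 on the SECY arrays, against -0.050 to 0.19 on the NNK arrays and -0.092 to 0.13 on the Untreated arrays; 13 of the 14 markers were well above background on all 16 arrays. Cd3e, of the T cell receptor complex, was the marker called: it had -0.36 in NNK+SECY against NNK mice (limma adjusted p = 0.0203) and 0.44 in NNK against Untreated mice (limma adjusted p = 0.0197). The part of leukocytes in the immunoproteasome values was not tested.

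**Figure D4:**
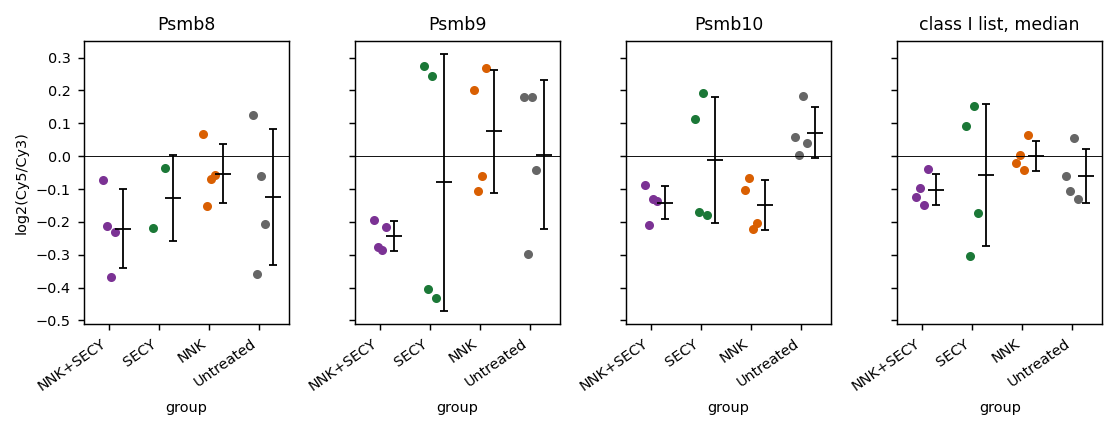
Log2(Cy5/Cy3) of Psmb8, Psmb9 and Psmb10 and the median of 12 class I antigen processing genes per array, by group, with a point for each array and the mean and SD beside it (Psmb8 has 2 SECY arrays, all others 4). SECY arrays split into a high and a low pair for Psmb9 (0.27 and 0.25, -0.40 and -0.43), and NNK-injected mice lie below 0 for Psmb10.

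No subunit gene was called after NNK in the comparisons made. In NNK against Untreated mice 0 of 42 genes were called, against 0.321% of all genes, and 2 had an unadjusted p below 0.05 (5.04% of all genes), both lower. In NNK+SECY against SECY mice 0 of 42 were called (0.0093% of all genes) and 2 had an unadjusted p below 0.05 (6.18%), Psmb4 at -0.13 ± 0.056 (SE, limma adjusted p = 0.786) and Psmc3 at -0.15 ± 0.06 (limma adjusted p = 0.786). Without SECY 3 Psmc3 had -0.089 ± 0.051 in this comparison (SE, limma adjusted p = 0.713). NNK+SECY arrays lay wholly below the SECY arrays for 3 of the 38 genes with all values: Psmb4, Psmb5 and Psmc3. The share over all genes is not given here, so this is a description. In the average over both diets 0 of 42 were called (0.284% of all genes), 2 had an unadjusted p below 0.05 (6.79%), both lower, and the estimates ran from -0.18 to 0.077 with a median of -0.022, against 0.005 for all genes. Without SECY 3, 1 was higher and 6 lower at an unadjusted p below 0.05 (5.78% and 4.21% of all genes), and 0 were called. With all arrays the 42 intervals of that average each excluded a 1.5-fold change. In NNK+SECY against Untreated mice, 0 of 42 were called (1.59% of all genes) and 1, Psmb10, had an unadjusted p below 0.05 (9.19%). The test of whether the diet acted differently with and without NNK called 0 of 42 (0.00465% of all genes), with 1, Psmc3, at an unadjusted p below 0.05 (4.62%), and 40 of its 42 intervals excluded a 1.5-fold difference. On the 4 slides with both arrays the median of NNK minus Untreated over the 42 genes was -0.052, -0.013, -0.009 and 0.034. On the slides of the diet-fed mice the median of NNK+SECY minus SECY was -0.035, -0.041, 0.083 and -0.041, the third being the slide of SECY 3.

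Genes that work with the proteasome gave no call either. Of 9 measured partners, which include ubiquitin receptors, deubiquitinases of the particle and the activating factor Nfe2l1, 0 were called in any of the 8 comparisons, and the median in the diet average was 0.060. Adrm1, a ubiquitin receptor, had 0.13 ± 0.04 (SE, limma adjusted p = 0.129), and Usp14, a deubiquitinase that docks on the particle, had 0.13 ± 0.042 (limma adjusted p = 0.144). Txnl1, a thioredoxin-like protein bound to the particle, had 0.13 ± 0.061 (SE, limma adjusted p = 0.385). Of 17 genes of ubiquitin and its carriers 0 were called in any comparison, with a median of -0.012. Sqstm1, an autophagy receptor that binds ubiquitin, had 0.13 ± 0.077 (SE, limma adjusted p = 0.557).

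Promoters were read to see which members carry the letters bound by NRF2 and by interferon-induced factors, since NRF2 enzymes rose in these lungs. RefSeq promoter sequences (GRCm38.p6, 250 bases before to 50 after the annotated start) matched 35 of the 42 genes. The antioxidant response element core, TGACNNNGC on either strand, was found in 6 of the 35, against 14.0% of the 27025 genes with a promoter. The 6 were Psmb5, Psmb6, Psmc6, Psmd9, Psmd12 and Psme4. Their diet averages ran from 0.006 to 0.14 with a median of 0.052, and those of the 29 genes without the letters from -0.20 to 0.12 with a median of 0.019. None of the 35 was called. The letters of an interferon-stimulated response element, GAAA and GAAA with any 2 bases between, were in 4 of 35 (3.99% of all genes), those of a gamma-activated site, TTCNNNGAA, in 2 (9.55%), and CCAAT in 13 (41.1%), with both strands searched and overlaps between motifs allowed. A match is a run of letters and not a shown binding site.

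The promoters below belong to the catalytic subunits Psmb5 and Psmb6 and the activator Psme4, which have matches to the antioxidant element, and to the immunoproteasome subunit Psmb8. They lie at chr14:54617946-54618245 on the minus strand, chr11:70525107-70525406 and chr11:30771525-30771824 on the plus strand, and chr17:34197945-34198244 on the plus strand. Each is written along the gene's own strand with motif matches in capitals. The matches begin at positions -47, -9 and -7 relative to the start in Psmb5, Psmb6 and Psme4 (the element reads on the opposite strand in Psme4), and the capitals in Psmb8 are a gamma-activated site at -97. Psmb5, Psmb6 and Psme4 had the highest diet averages of the 6 genes with the element (0.078, 0.12 and 0.14). Psmd9 has a match at -31, nearer the start than that of Psmb5, and is not shown. Its diet average, 0.006, was the lowest of the 6.
Psmb5: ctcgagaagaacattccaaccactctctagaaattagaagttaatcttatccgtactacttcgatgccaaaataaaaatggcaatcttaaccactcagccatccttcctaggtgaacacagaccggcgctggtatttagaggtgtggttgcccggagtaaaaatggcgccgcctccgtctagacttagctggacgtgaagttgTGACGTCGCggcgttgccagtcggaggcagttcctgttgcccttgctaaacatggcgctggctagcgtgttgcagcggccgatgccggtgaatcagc
Psmb6: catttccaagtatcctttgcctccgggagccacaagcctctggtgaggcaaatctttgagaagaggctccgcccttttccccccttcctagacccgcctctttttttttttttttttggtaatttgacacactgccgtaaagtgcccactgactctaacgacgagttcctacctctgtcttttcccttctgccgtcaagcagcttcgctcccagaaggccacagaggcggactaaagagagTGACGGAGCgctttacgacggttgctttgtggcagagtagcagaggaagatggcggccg
Psme4: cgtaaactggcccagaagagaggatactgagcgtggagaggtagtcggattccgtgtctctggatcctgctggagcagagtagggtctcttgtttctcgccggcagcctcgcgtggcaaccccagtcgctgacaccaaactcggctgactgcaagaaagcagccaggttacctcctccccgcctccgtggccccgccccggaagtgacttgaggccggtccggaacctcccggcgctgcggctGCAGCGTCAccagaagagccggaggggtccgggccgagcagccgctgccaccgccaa
Psmb8: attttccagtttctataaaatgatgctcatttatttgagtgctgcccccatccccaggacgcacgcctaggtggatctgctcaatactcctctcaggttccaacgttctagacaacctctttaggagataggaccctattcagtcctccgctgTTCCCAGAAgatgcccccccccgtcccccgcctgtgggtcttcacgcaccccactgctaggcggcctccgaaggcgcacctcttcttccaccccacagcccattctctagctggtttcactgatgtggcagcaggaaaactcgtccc
In NNK+SECY against NNK mice the estimates were 0.01 for Psmb5, 0.026 for Psmb6 and 0.19 for Psme4. In SECY against Untreated mice they were 0.15, 0.21 and 0.088 in the same order with all arrays, and 0.085, 0.12 and 0.20 without SECY 3. The interaction of diet and NNK was not called for any of the 3.

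Spread between the arrays of a group, of 1 mouse each, limited these comparisons. Differences between mice and between arrays cannot be told apart in it. The median SD within groups was 0.101 for the 42 genes and 0.095 for all genes. Psmc6 (0.28), Psmb9 (0.25) and Psmd14, the deubiquitinase of the lid (0.19), varied most, and Psmd5 (0.048) least. The SD of Psmc6 includes its SECY 3 value of -0.83. For 41 of the 42 genes the widest range within 1 group was larger than the largest difference between group means, Psmd5 being the exception. The widest of 4 ranges tends to exceed a difference between means, and the share over all genes was not counted. This count therefore does not set the members apart. Of the 17 genes with several probes, 10 had the same sign of the diet average with every probe, and in 2, Psmd7 and Psmd11, the probes differed by more than 0.2. The array median over core and regulatory genes was compared with every other tested gene: the 5 most like it over 16 arrays were 2310042G06Rik (Pearson r = 0.93), Uchl4 (0.93), LOC544728 (0.91), Gyk (0.89) and Bet1 (0.89), all sharing arrays with it.

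The pool in Cy3 was the same RNA on every array, so its signal served as a check on the Cy5 signal. Between the slides of diet-fed mice and the slides of the others, the Cy3 signal of the members changed by -0.24 to 0.31 on the log2 scale. In 35 of 42 genes Cy5 and Cy3 changed the same way, and in 29 of 42 the ratio changed by less than Cy3 did. When Cy5 was tested alone, 6 members were called in the diet average, against 31.5% of all genes. In each of the SECY against Untreated, NNK+SECY against NNK and NNK+SECY against Untreated comparisons 3 were called, against 21.8%, 7.79% and 15.5% of all genes. Those with the largest changes had matching changes in Cy3: Psme3 changed by 0.43 in Cy5 and 0.31 in Cy3, Psmb3 by 0.36 and 0.25, and Psmb1 by -0.36 and -0.24. The ratio, in which a change shared by both dyes drops out, is therefore the value reported throughout.

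**Figure D5:**
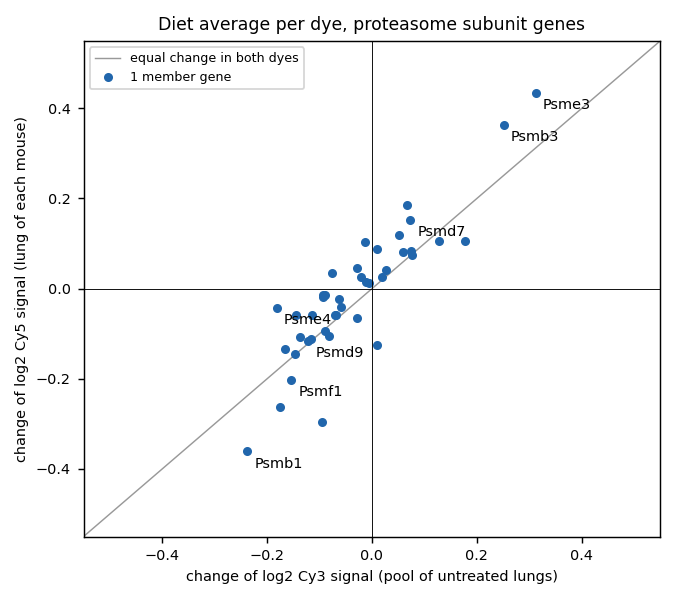
Change of the log2 Cy5 signal (lung of each mouse) against change of the log2 Cy3 signal (pool of untreated lungs) in the diet average, with a point for each of the 42 genes and a line where both changes are equal. Psme3 and Psmb3 at the upper right and Psmb1 at the lower left show large changes in both dyes.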

How the data were processed

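Lung RNA of 16 mice was measured on 16 two-colour arrays. Per the file headers, the authors used Feature Extraction 8.1.1.1 to turn the scans into spot values. Intensity of spot and local background, unnormalized and linear, is in the deposited files, together with the software's log10 ratio (red over green). The authors' log2 values, deposited apart, are that ratio rescaled, to within 0.005. The build behind the array's probes is not known here, so no probe positions are printed.

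Mean intensity was corrected with normexp (offset 50) and normalized by loess within each array, with controls and outlier flags at weight 0 (R 4.3.3, limma 3.58.1 and version 1.17.8 of the data.table package). Flagged spots were removed, spots of a probe averaged, and genes named as in the files. A gene was tested if the Cy5 signal of its brightest probe exceeded background, by the software's flag, on every array of some group. limma was fitted over all 16 arrays with a mean for each group, p-values were adjusted by Benjamini-Hochberg over all genes tested, and called means an adjusted p below 0.05. Signal per dye was taken after Aquantile scaling. Fits were tested on simulated data. The labels call the mice biological replicates, and 4 arrays a group limit the precision.

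Members and lists were chosen with earlier results of these data known. Per-array values are given for the immunoproteasome genes, genes called in any comparison and the 2 genes of each role with the lowest unadjusted p in the diet average; Psmb5 and Psmb6 were added as catalytic subunits after their values were seen. Other pathway genes named are those called and up to 4 a list. Arrays with the same number share a barcode in the file headers, taken as a slide, within NNK and Untreated and within NNK+SECY and SECY. Their deviations from the group means correlated by 0.249 and 0.034 on average, against -0.083 and -0.014 for other numbers. Across these sets arrays share a number only. Arrays of the same number correlated there by 0.271 for Untreated with SECY, against -0.099 for other numbers. The other pairs of groups across the sets had 0.042 to 0.113, against -0.033 to -0.015. Alternatives were background correction, normalization, probe filters, Cy5 alone, array weights, blocks and each array left out.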

Additional observations from a re-analysis of the deposited data

Results flagged for a closer look

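Of 164 groups of 4 arrays examined over the 42 genes, 12 (7.32%) held an array whose gap to its nearest neighbour exceeded Dixon's 95% limit, a share of the group's range; chance gives about 1 in 20 such groups. SECY 3 held 8 of the 12: Psmc6 at -0.83, Psmc1 at -0.35, Psma4 at -0.32, Psmd10 at -0.24 and Psma5 at -0.15 lay below the other SECY arrays, and Psmb5 at 0.33, Psmc3 at 0.23 and Psmc4 at 0.19 above them. The others were Psmb1 at -0.18 on NNK+SECY 4, Psmc4 at 0.008 on NNK+SECY 1, Psmd13 at -0.014 on NNK+SECY 2 and Psmc5 at 0.093 on NNK 1. Without SECY 3 the diet average had 9 members higher and 3 lower at an unadjusted p below 0.05 (7.83% and 10.4% of all genes), against 8 and 2 with it (4.89% and 7.41%).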

How the results depend on the processing

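The count of called members stayed at 0 in every comparison under the alternatives run, with these exceptions. With the Cy5 signal alone it was 3 in SECY against Untreated, NNK+SECY against NNK and NNK+SECY against Untreated, and 6 in the diet average (21.8%, 7.79%, 15.5% and 31.5% of all genes). With array weights it was 2 in the diet average (Psme4 and Psmd1; 5.94% of all genes). Leaving out each array in turn gave 0 to 1 in the diet average, the 1 being Psme4 without SECY replicate 3 (4.06% of all genes), and 0 in the other 7 comparisons. With the slide, or the replicate number, as a block 0 were called in every comparison; over all genes the slide block called 38 in NNK against Untreated, 38 in the NNK average and 0 in NNK+SECY against SECY. Of 3094 values of single genes under alternatives, 15 became called, 0 reversed a called value, and 195 uncalled values changed sign. Counts over all genes moved more: from 29 to 4689 in SECY against Untreated (59 reported), 280 to 1676 in NNK+SECY against NNK (374), 18 to 464 in NNK against Untreated (69), 0 to 30 in NNK+SECY against SECY (2), 164 to 3339 in NNK+SECY against Untreated (341), 414 to 6771 in the diet average (512), 19 to 600 in the NNK average (61) and 0 to 3 in the interaction (1). The highest counts came with the Cy5 signal alone in all but the interaction. The cause was not tested. The diet and the slide set, and NNK and the scan day, cannot be told apart, and 4 mice a group leave a median SE of 0.050 in the averages.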
